A study of Mus musculus with 6 samples.

Results

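The genes described here encode proteins and a lipid enzyme of myelin: Mbp, Mog, Mag, Mobp, Cnp, Cldn11, Ermn, Mal and Ugt8a. They were taken by name, as every probe set annotated to exactly 1 of these symbols, with no filter on dim signal and with the probe sets of a gene kept apart. On this kind of array a transcript is read by several short probes, which form a probe set. This gave 25 probe sets of 9 genes, among 45037 probe sets and 18193 named genes on the array. Mbp had 8 of them, Mobp 5, Cnp 3, Ermn, Mal and Ugt8a 2 each, and Mog, Mag and Cldn11 1 each.

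Brain RNA had been measured on the Affymetrix Mouse430_2 array, with 1 array per mouse, in 4 female mice lacking melanotransferrin (MTf -/-) and 2 female wild-type mice (MTf +/+), all aged 123 days and from 1 litter. Melanotransferrin, encoded by Meltf, is a relative of transferrin that is anchored in the cell membrane and can bind iron. The strain is given as C57BL/6 - Lucy for the knockout and C57BL/6 for the wild type. The comparison asks which brain transcripts differ where melanotransferrin is missing. No treatment is named, and neither the deleted part of the gene nor the dissection of the brain is described in the sources used here. Mice are called knockout 1 to 4 and wild type 1 and 2 in the order of deposit, and these numbers pair nothing.

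Oligodendrocytes wrap axons of the central nervous system in myelin, a stack of membrane rich in galactolipids and cholesterol. Myelin basic protein and other cytoplasmic proteins hold the inner membrane faces together, while adhesion and junction proteins of the outer faces join the sheath to the axon and its layers to one another. Myelin is dense in brain stem, corpus callosum and cerebellar white matter, and sparse in cortical grey matter. Oligodendrocytes need iron for myelin lipid synthesis and are among the iron-rich cells of the brain. The transcription factors SOX10 and MYRF switch on myelin genes.

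The sequence before a gene's start is where such factors can act. Shown are 5 of these stretches, from the member genes with at least 1 match to the motifs named below. Each runs 5′ to 3′ on the gene's own strand over the 250 bases before the start, from RefSeq on GRCm38.p6. Capitals mark the letters ACAATG and ACAAAG, which SOX factors bind, and CTGGCAC and CTGGTAC, the MYRF motif. Both strands were searched, and in the sequences shown no match of the first kind overlapped one of the second.
Mobp (chr9:120149492-120149741, plus strand): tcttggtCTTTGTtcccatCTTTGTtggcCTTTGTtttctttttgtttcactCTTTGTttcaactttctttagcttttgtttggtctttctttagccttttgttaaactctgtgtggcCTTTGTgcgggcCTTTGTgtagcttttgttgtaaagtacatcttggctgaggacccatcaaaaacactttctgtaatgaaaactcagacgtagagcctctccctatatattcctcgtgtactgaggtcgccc
Ermn (chr2:58052865-58053114, minus strand): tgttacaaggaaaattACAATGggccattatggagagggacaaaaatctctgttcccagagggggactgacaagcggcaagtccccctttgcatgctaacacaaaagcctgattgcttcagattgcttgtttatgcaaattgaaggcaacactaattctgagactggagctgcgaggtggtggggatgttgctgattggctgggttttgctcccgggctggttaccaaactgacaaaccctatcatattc
Mag (chr7:30914864-30915113, minus strand): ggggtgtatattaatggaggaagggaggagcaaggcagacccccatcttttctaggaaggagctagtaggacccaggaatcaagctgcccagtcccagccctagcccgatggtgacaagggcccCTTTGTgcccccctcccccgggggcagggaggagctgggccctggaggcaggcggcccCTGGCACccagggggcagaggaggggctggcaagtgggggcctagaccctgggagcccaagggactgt
Cnp (chr11:100574689-100574938, plus strand): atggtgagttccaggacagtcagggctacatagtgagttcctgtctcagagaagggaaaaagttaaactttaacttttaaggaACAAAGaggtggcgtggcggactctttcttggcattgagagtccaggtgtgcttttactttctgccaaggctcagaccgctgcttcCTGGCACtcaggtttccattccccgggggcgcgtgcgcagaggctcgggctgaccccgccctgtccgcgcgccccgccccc
Mog (chr17:37023399-37023648, minus strand): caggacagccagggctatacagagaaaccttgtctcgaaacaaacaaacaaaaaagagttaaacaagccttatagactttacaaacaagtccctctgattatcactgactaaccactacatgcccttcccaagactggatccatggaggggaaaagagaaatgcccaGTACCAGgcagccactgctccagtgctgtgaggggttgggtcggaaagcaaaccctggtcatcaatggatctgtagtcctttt
RefSeq entries were matched for 8 of the 9 genes, with 10 starts in all, of which Mag had 3, and the first listed Mag start is shown. The Mobp stretch held 6 SOX motifs, between 120 and 243 bases before the start. Of all 32851 such stretches, only this Mobp stretch held 6 or more, while 25.2% held at least 1. Ermn, Mag and Cnp held 1 SOX motif each. The MYRF motif stood once in the stretches shown for Mag, Cnp and Mog, 68, 81 and 83 bases from the start. It stood at least once in 5.93% of all stretches. Another Mag start had a SOX and a MYRF motif 67 and 9 bases before it, and the remaining Mag start had neither. Neither motif was found in the stretches of Mal, Cldn11 and Ugt8a. A match of letters describes the sequence and does not show that a factor binds there.

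Signals are linear intensities as deposited, in arbitrary units, scaled by the authors to a common trimmed mean. Differences are given on the log2(signal + 49.6) scale as knockout minus wild type, from limma fitted over all probe sets, with Benjamini-Hochberg adjustment over all of them and a threshold of 0.05. None of the 25 probe sets passed, and none of the 45037 did (percent called 0), with a smallest adjusted p of 0.738 among the 25 and 0.349 over the array. At an unadjusted p below 0.05 there were 3 of the 25 (2 lower and 1 higher in the knockout), against 6.76% of all probe sets (1.84% lower and 4.92% higher). With 1 array for each mouse, the p-values cover biological and array-to-array spread at once. In whole tissue, fewer oligodendrocytes and less RNA per oligodendrocyte cannot be told apart. The directions depend on scaling, since the median of all probe sets moved from 0.078 to -0.14 when arrays were centred on their medians, and the share of higher ones among those at an unadjusted p below 0.05 from 72.8% to 20.3%, with 54.0% after quantile normalisation.

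Several arrays differed in ways that touch these genes. Wild type 1 was the dimmest array, with a median signal of 192.5 against 238.2 to 278.3 on the others, and its brightest probe sets were dim as well. Over the 100 brightest probe sets outside this gene group its log2 signal lay 0.51 below the mean of the other arrays (median difference -0.51). In knockout 2 the cerebellar genes Pcp2 and Gabra6 read 185.8 and 87.6, against lowest values of 22259.7 and 6938 on the other 5 arrays. Markers of hindbrain and spinal cord also differed between mice. For Slc6a5, the glycine transporter of brain stem and spinal neurons, named after its values were seen, the knockouts read 353.8, 22.9, 997.6 and 802.8 in order and the wild types 872 and 999.8. Meltf, the deleted gene, read 113 ± 37.0 (SD, n = 4) against 188 ± 58.1 (SD, n = 2) with overlapping groups (log2 difference -0.55, SE 0.38, limma adjusted p = 0.784), and the place of its probes relative to the deletion is unknown, so that it does not check the labels.

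By their brightest probe sets, Mbp, Cnp and Mobp were among the strongest signals of these arrays, at or above the 99.2 percentile of mean log2 signal. The brightest Mbp probe set ranked between 2 and 27 from the top on the 6 arrays, out of 45037. On the scale of mean log2 signal, the brightest probe set of each of the 9 genes lay at or above the 85.6 percentile of the array. Across genes, brightness also depends on the probes, so the order of the genes in the plot of levels is not an order of transcript number.

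**Figure D1:**
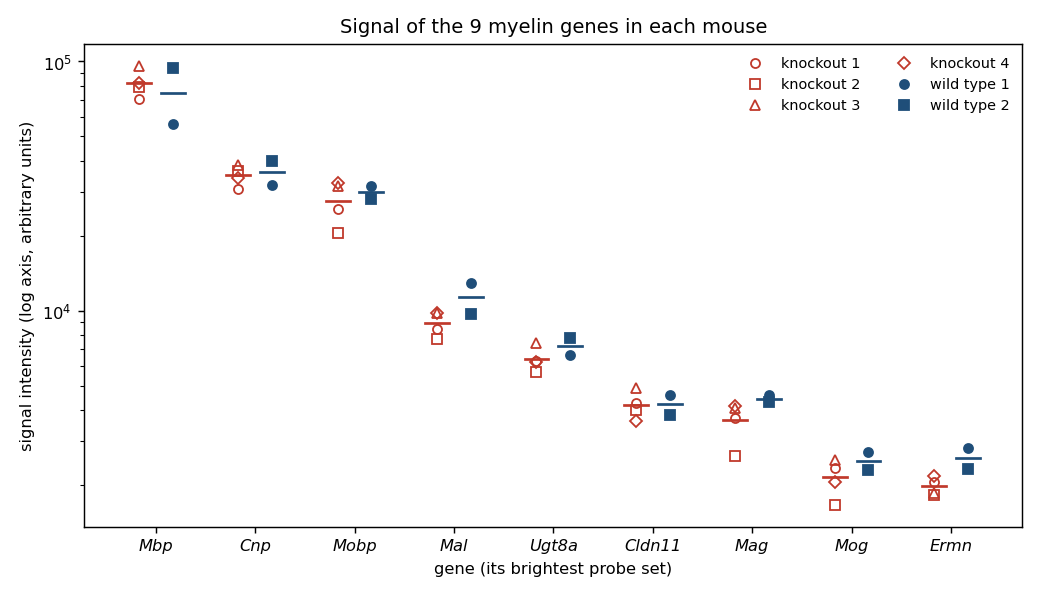
Signal intensity (log axis, arbitrary units) of the brightest probe set of each of the 9 genes in the 4 knockout mice (open red symbols) and 2 wild-type mice (filled blue symbols), with bars at the group means. For Mag and Ermn all 4 knockout mice lie below both wild-type mice; for the other 7 genes the groups overlap.

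Taken by the brightest probe set of each gene, 8 of the 9 genes had a lower mean in the knockout and Mbp a higher one, with a median log2 difference of -0.17. This count was 7 without knockout 1, 2 or 4 or wild type 2, 8 without knockout 3 or wild type 1, and 9 after median centring. Over all 25 probe sets, 15 were lower (60%), against 39.7% of the array, and the median log2 difference was -0.071 against 0.078. Median centring made that 23 of 25, against 65.7% of the array, and quantile normalisation 20 of 25, against 51.0%. In the brighter 60% of the array, which kept 23 of the 25, 15 were lower, against 44.6% of all there. The median log2 difference was then -0.087 against 0.036. The 25 intervals in the plot of log2 differences reached 0 or crossed it for all but 3 probe sets, those of Ermn and the dimmer one of Mal. The members' median SE, 0.18, was smaller than the 0.30 of all probe sets.

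**Figure D2:**
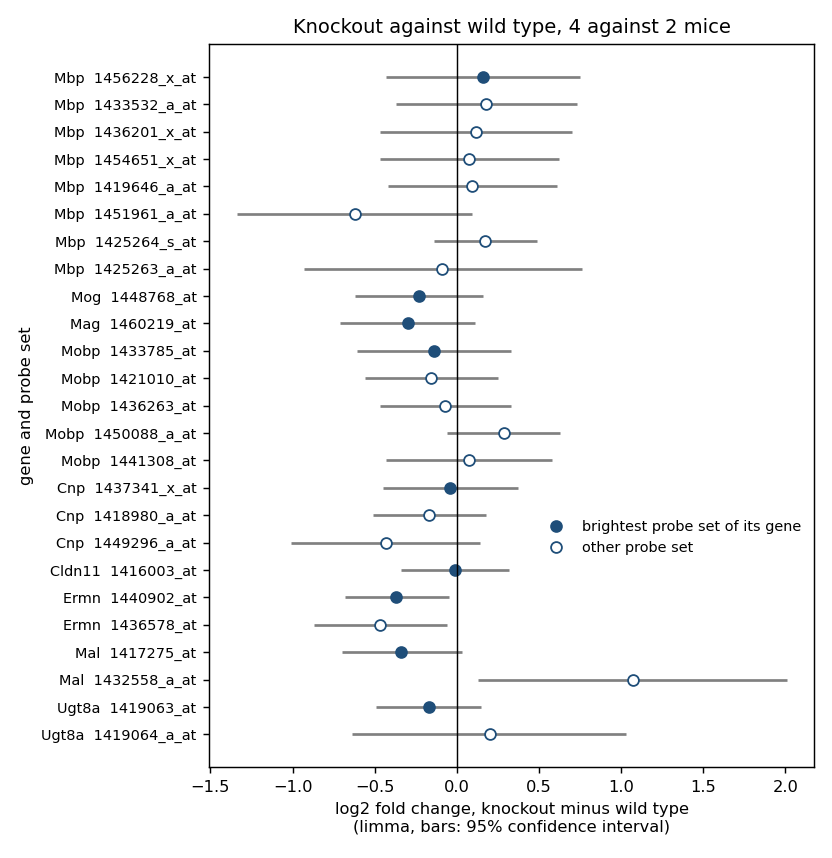
Log2 difference between knockout (n = 4) and wild type (n = 2) for each of the 25 probe sets, with 95% confidence intervals from limma. Filled points are the brightest probe set of each gene. The intervals of both Ermn probe sets lie below 0 and that of Mal 1432558_a_at above 0; no probe set passed after adjustment over the array.

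Among the cytoplasmic structural proteins, Mbp, which compacts the myelin membrane, had 5 very bright probe sets that behaved alike. The brightest of them (1456228_x_at) read 70556, 79108, 95975 and 82052 in the 4 knockouts, listed from 1 to 4 here and throughout, and 56230.4 and 93845 in the 2 wild types. Wild type 1 was the lowest array on each of the 5, and wild type 2 lay within the knockout range on 4 of them and above it on 1419646_a_at. Their log2 differences ran from 0.077 to 0.18, with a median of 0.12 and limma adjusted p-values from 0.890 to 0.958. Wild type 1 lay 0.45 below the other arrays on these probe sets (median log2 difference -0.45), close to its shift of -0.51 on the 100 brightest other probe sets, of which 99% were higher in the knockout. Without wild type 1 all 5 were lower in the knockout, from -0.22 to -0.13.

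The dimmer Mbp probe sets did not follow the bright ones. On 1451961_a_at, wild type 1 was high at 8436, while wild type 2 read 3056 and the knockouts read 3542, 3068, 3874 and 2747. The other 5 arrays were thus within 1.41-fold of one another and wild type 1 stood outside them. The log2 difference of -0.62 (SE 0.32, limma adjusted p = 0.743) turned to 0.10 without wild type 1 and was -1.35 without wild type 2, where it passed with an adjusted p of 0.0362 in limma on a lone wild-type array. On 1425263_a_at the knockouts read 1513, 1121, 751 and 453.1 and the wild types 1094 and 796.8, so that knockouts 1 and 4 were the extremes of all 6 arrays. On 1425264_s_at the log2 difference was 0.17 (SE 0.14). The letters a, s and x in these names mark, in the maker's scheme, probes shared by several transcripts of a gene, by several genes, or prone to cross-hybridise.

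Mobp, a second small basic protein that sits in the major dense line of myelin, was described by 5 probe sets that disagreed in direction. The brightest (1433785_at) read 25693, 20511, 31534 and 32514 in the knockouts and 31772 and 28001 in the wild types. Knockout 2 was the lowest there, and without it the log2 difference went from -0.14 to -0.0035. On 1450088_a_at all 4 knockouts, at 2894, 2502, 3325 and 2363, lay above the wild types at 2205 and 2286. That was the only member probe set higher in the knockout without overlap, where 11.3% of all probe sets were, and its log2 difference was 0.29 (SE 0.15, limma adjusted p = 0.746). The probe sets 1421010_at and 1436263_at had differences of -0.16 and -0.071 with overlapping groups, and 1441308_at read at most 29.8 on any array.

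Ermn, or ermin, an actin-associated protein of the mature sheath's cytoplasmic loops, gave the most even difference. Its brighter probe set (1440902_at) read 2057, 1826, 1848 and 2179 in the knockouts against 2824 and 2315 in the wild types. Its other probe set (1436578_at) read 1044, 1299, 1428 and 1586 against 2049.8 and 1668. On both, every knockout mouse lay below every wild-type mouse and wild type 1 was the highest. The first was 1.29-fold lower (log2 difference -0.37, SE 0.14, 95% confidence interval -0.68 to -0.05, limma adjusted p = 0.738), and the second 1.38-fold lower (-0.47, SE 0.18, limma adjusted p = 0.738). Leaving out any 1 array kept both below 0, from -0.51 to -0.23 for the first and from -0.61 to -0.32 for the second, with the smallest sizes without wild type 1. Together with Mag these made 3 member probe sets lower without overlap, where 4.81% of all probe sets were.

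Of the surface proteins, Mag, the myelin-associated glycoprotein that faces the axon, read 3726, 2620.0, 4069 and 4156 in the knockouts and 4579.5 and 4292 in the wild types. The groups did not overlap, but the gap between knockout 4 and wild type 2 was small and knockout 2 stood well below the rest. The log2 difference was -0.30 (SE 0.18, limma adjusted p = 0.760), and -0.15 without knockout 2. Mog, myelin oligodendrocyte glycoprotein, which lies on the outermost layer and is a classic target of autoimmunity, read 2344, 1662, 2524 and 2049 against 2709.7 and 2283. Knockout 2 was again the lowest, the groups overlapped, and the difference of -0.23 (SE 0.18) became -0.11 without that mouse.

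Cldn11, the claudin that seals the myelin layers with tight junctions, was nearly the same in the groups at 4186 ± 537 (SD, n = 4) and 4205 ± 534 (SD, n = 2). Its individual values were 4265, 3990.2, 4883 and 3608 in the knockouts and 4582 and 3827 in the wild types. The interval of its log2 difference, -0.34 to 0.32 around -0.0091, does not show equality but bounds the difference. Its sign turned to 0.033 under quantile normalisation.

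Mal, a membrane-spanning proteolipid that sorts lipids and proteins to the sheath, had probe sets that went opposite ways on wild type 1. The brighter (1417275_at) read 8441, 7674, 9794 and 9775 in the knockouts, 12944 in wild type 1 and 9739 in wild type 2. The dimmer (1432558_a_at) read 4125, 4512, 4585 and 3754 in the knockouts, 950.5 in wild type 1 and 4134 in wild type 2. So wild type 1 was the highest array for the former and the lowest for the latter, while wild type 2 lay within the knockout range on both. The log2 differences were -0.34 (SE 0.16, limma adjusted p = 0.743) and 1.07 (SE 0.42, limma adjusted p = 0.738). Without wild type 1 they were -0.13 and 0.033, and without wild type 2 the second was 2.10 and passed in limma, on a lone wild-type array assumed to vary like the knockouts. Their probe sequences were not used here.

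Cnp, the 2′,3′-cyclic nucleotide phosphodiesterase that keeps cytoplasmic channels in myelin open, read 30821, 36218, 38575 and 34147 in the knockouts and 32061 and 39996 in the wild types on its brightest probe set (1437341_x_at). The groups overlapped and the log2 difference was -0.040 (SE 0.18). Its other probe sets were lower by more, -0.17 (SE 0.15) on 1418980_a_at and -0.43 (SE 0.26) on 1449296_a_at. On the latter, knockout 2 at 835.2 and wild type 1 at 2137 were the extremes, and the difference was -0.26 without the former and -0.087 without the latter.

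Ugt8a makes galactosylceramide, the lipid most typical of myelin, and is the lipid enzyme of the group. Its bright probe set (1419063_at) read 6255, 5695, 7435 and 6195 in the knockouts and 6625 and 7759 in the wild types. Knockout 3 lay between the wild types and the other knockouts below them, with a log2 difference of -0.17 (SE 0.14, limma adjusted p = 0.814). Its other probe set (1419064_a_at) read from 16.8 to 109.4, near the lower end of the array at the 14.6 percentile, and gives little on the gene.

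**Figure D3:**
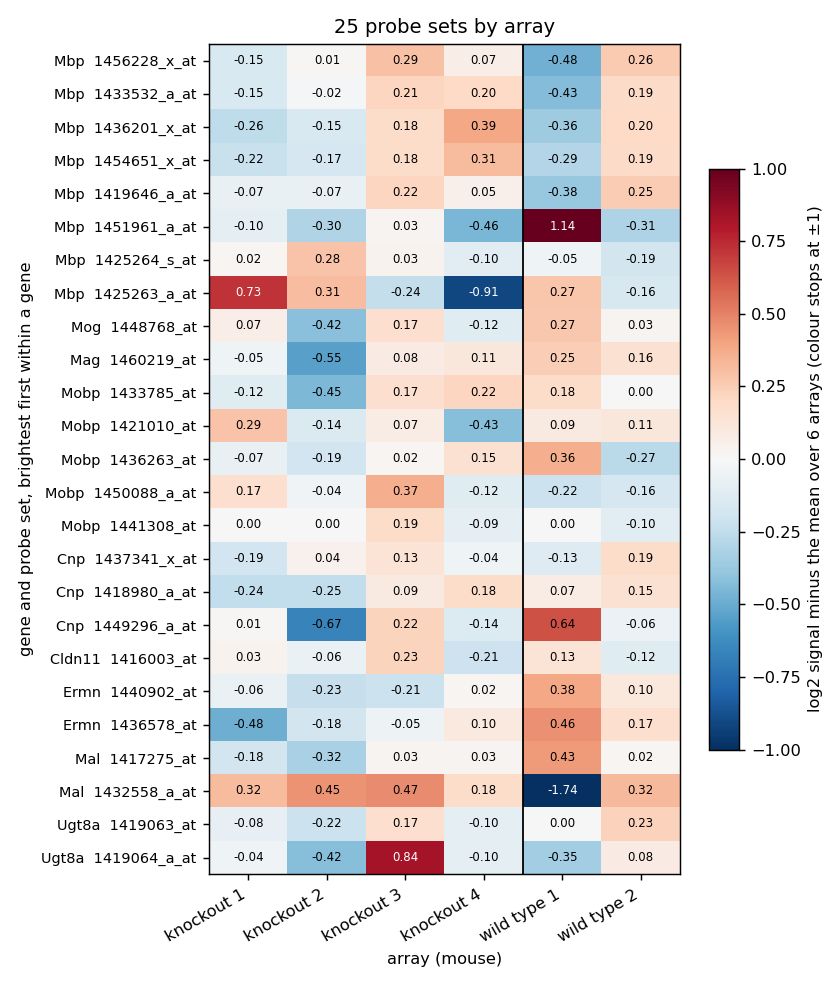
Log2 signal of each of the 25 probe sets on each of the 6 arrays, minus its mean over the arrays (colour stops at 1 and -1; the value is printed in each cell). Wild type 1 is blue on the 5 brightest Mbp probe sets and at -1.74 on Mal 1432558_a_at but at 1.14 on Mbp 1451961_a_at; knockout 2 is low on Mag (-0.55), Mobp 1433785_at (-0.45) and Mog (-0.42).

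The pattern by mouse was as large as the pattern by group. Knockout 2 was the lowest array for 6 of the 9 brightest probe sets, and wild type 1 the highest for 4. Averaged over the 9 brightest probe sets, each relative to its mean over the arrays, the log2 level was -0.24 in knockout 2, -0.082 in knockout 1, -0.0034 in knockout 4, 0.10 in wild type 2 and 0.12 in wild type 1 and in knockout 3. Knockout 3 was thus as high as the wild types. The hindbrain and spinal list, of which 7 of 8 genes were measured, had levels of -1.06 in knockout 2, -0.73 in knockout 1, -0.090 in knockout 4, 0.43 in wild type 1, 0.69 in wild type 2 and 0.76 in knockout 3. The 3 mice with the lowest myelin level were thus also the 3 with the lowest hindbrain level, in the same order, and knockout 3 lay at the top of both, beside wild type 1 for myelin. Summed over the list, hindbrain signal ran from 1097.7 to 3368 in the knockouts and from 2700.2 to 3152 in the wild types. Of its genes, Hoxb2, Hoxb5 and Hoxc4, which mark hindbrain and cord and were also named after their values were seen, read 10.9, 13.0 and 20.7 in knockout 2 and 397.2, 403.8 and 290.5 in knockout 3. The other Hox genes of the list differed less between these mice, with 91.8 and 110.2 for Hoxa2, 821 and 996 for Hoxa5 and 117.4 and 172.7 for Hoxd3, and all 3 were lowest outside knockout 2. The cerebellar list, 8 of 10 genes measured, was at -3.22 in knockout 2 and from 0.20 to 0.81 elsewhere, with summed signals of 22500.1 to 132731 in the knockouts and 125088 to 134774 in the wild types. The part of hindbrain or cerebellar content in the myelin values was not tested.

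The other genes of the oligodendrocyte lists were mostly lower in the knockout as well, without passing. Of 69 listed genes 63 had a probe set with 1 symbol. By their brightest probe sets, 47 were lower and 16 higher in the knockout, with a median log2 difference of -0.14. Of all probe sets, dim ones included, 39.7% were lower and their median was 0.078. In the brighter 60% of the array, where all 63 lay, these were 44.6% and 0.036. For the 63 genes, quantile normalisation gave 51 lower, against 51% of all probe sets, and median centring 60, against 65.7%. None passed in limma, 11 lower and 1 higher of the 63 had an unadjusted p below 0.05, against 1.84% and 4.92% of all probe sets. Without overlap, 14 lay lower and 1 higher, against 4.81% and 11.3%. The count of lower genes was 40 without wild type 1, where 47.5% of the array was lower, and 46 without knockout 2, where 39% was. Without wild type 1 the median log2 difference was -0.12, against 0.018 for the array. That setting leaves a lone wild-type array, so no count by p is given for it. Those at an unadjusted p below 0.05 in limma, in either direction, numbered 12 with all arrays and 5 without knockout 2. With all arrays but no intensity trend in the fit they numbered 4. Over all 45037 probe sets these numbers were 3046, 2720 and 3080. The values below are from limma, in which the adjusted p of every gene named was between 0.738 and 0.957.

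Of 19 other myelin proteins, 15 were lower and 5 of these had an unadjusted p below 0.05, where 1.84% of all probe sets were lower. Wild type 1 was the highest array for each of the 5. The count at that p was 2 without knockout 2 and 0 without an intensity trend in the fit. The array-wide counts there were 2720 and 3080. Cmtm5, a four-pass membrane protein of oligodendrocytes, read 4416, 4144, 4674 and 4705 in the knockouts and 6173 and 5303 in the wild types (log2 difference -0.35, SE 0.12). The groups did not overlap. Cd9, a tetraspanin, read 3623, 3244, 3439 and 2883 against 4749.6 and 3883, also without overlap (-0.38, SE 0.14). Of 12 lipid enzymes, 10 were lower with none at an unadjusted p below 0.05, among them ceramide kinase, Cerk, at -0.34 (SE 0.17) and the fatty acid elongase Elovl1 at -0.27 (SE 0.15).

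Among 10 regulators 6 were lower. Sox10 and Olig2, which specify the lineage, differed by less than their errors, with log2 differences of -0.080 (SE 0.24) and -0.11 (SE 0.17). Nkx2-2, a homeobox factor of the precursor stage, read 396.8, 343.5, 437.2 and 549.7 against 709.2 and 591.9 (-0.55, SE 0.24), while Tcf7l2, the Wnt effector of differentiating oligodendrocytes, was at 0.55 (SE 0.23) with overlapping groups. Of 9 genes of precursors and newly formed cells, 5 were lower and none reached an unadjusted p of 0.05. Pdgfra, the growth factor receptor of precursors, was at -0.19 (SE 0.23), Bcas1, of cells beginning to myelinate, at -0.29 (SE 0.16), and Tnr, the matrix protein tenascin-R, at 0.34 (SE 0.17).

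Among 13 channels, receptors and enzymes of mature oligodendrocytes 11 were lower, with a median log2 difference of -0.23. An unadjusted p below 0.05 was reached by 5, all lower, where 1.84% of all probe sets were lower. The count at that p was 3 without knockout 2 and 3 without an intensity trend in the fit. Kcnj10, the potassium channel of glia, astrocytes included, read 4971, 5016, 4315 and 5597 in the knockouts and 7213 and 6697 in the wild types (-0.48, SE 0.13). Gpr37, a receptor of maturing oligodendrocytes, read 2236, 1768, 2157 and 1859.5 against 4405 and 2464 (-0.71, SE 0.21). For both the groups did not overlap, and for Gpr37 wild type 1 stood far above wild type 2. Gpr37 was the 1 gene of these lists that passed when wild type 2 was left out.

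**Figure D4:**
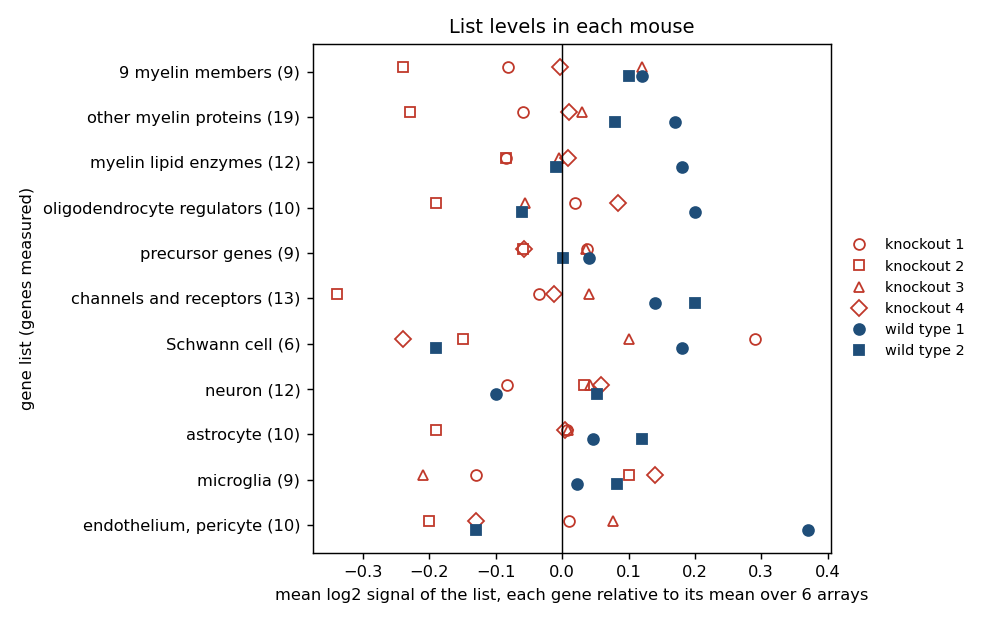
Mean log2 signal of each gene list in each mouse, every gene relative to its mean over the 6 arrays (x axis); the number of genes measured is in brackets. In the 9 myelin genes knockout 2 lies at -0.24 and knockout 3 at 0.12, beside the wild types at 0.10 and 0.12, while in the channel and receptor list both wild types, at 0.14 and 0.20, lie above the knockouts, which reach 0.040.

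Other cell types were set beside these values. The neuron list had levels of -0.083 to 0.058 in the knockouts and -0.10 and 0.053 in the wild types, with 3 of 12 genes lower. The astrocyte list ran from -0.19 to 0.0087 in the knockouts against 0.047 and 0.12, with 5 of 10 genes lower and summed signals of 195268 to 219769 against 165105 and 218357. Of the 10, 2 had an unadjusted p below 0.05 in limma, both lower without overlap. Of all probe sets, 1.84% were lower at that p and 4.81% lower without overlap. Gfap, the astrocyte filament protein, read 1819, 2043, 1911 and 2449 in the knockouts and 3806 and 2678 in the wild types (-0.63, SE 0.17, limma adjusted p = 0.738). Aqp4, the water channel of astrocyte endfeet, read 5901, 4117, 5316 and 5881 against 9520 and 7085 (-0.64, SE 0.18, limma adjusted p = 0.738). Both were named after their values were seen. The 5 higher genes, Slc1a2, Glul, Aldoc, Slc1a3 and Gja1, had overlapping groups and log2 differences of 0.30, 0.26, 0.21, 0.16 and 0.011. Knockout 2 was the lowest mouse in that list too. The endothelial and pericyte list, at 0.37 in wild type 1 and -0.13 in wild type 2, overlapped the knockout range of -0.20 to 0.076, with knockout 2 below both wild types, 8 of 10 genes lower and 1 of these at an unadjusted p below 0.05 in limma. The microglial list ran from -0.21 to 0.14 in the knockouts against 0.022 and 0.083. The choroid plexus list ran from -0.25 to 0.38 against -0.14 and 0.34, and the forebrain list was highest in knockout 2, at 0.56, and between -0.18 and -0.014 elsewhere. For peripheral nerve, 6 of 8 genes were measured, with levels of -0.24 to 0.29 in the knockouts against 0.18 and -0.19, and 4 lower. Pmp2, Dhh, Pmp22 and Egr2 of this list were named after their values were seen. Pmp2 and Dhh read at most 102.6 and 25.4. Pmp22, the brightest of the list, is a myelin protein of peripheral nerve. It read 2360.6 to 3008 in the knockouts and 3503 and 4696 in the wild types, lower without overlap (-0.55, SE 0.16, limma adjusted p = 0.738). Egr2, a transcription factor of Schwann cells that neurons also induce with activity, read 497 to 1305 against 289.1 and 398.6, higher without overlap (1.04, SE 0.37, limma adjusted p = 0.738). Over the array, 4.81% of probe sets were lower and 11.3% higher without overlap. The part of these cell types in the myelin values was not tested.

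The single-symbol probe sets whose pattern over the 6 arrays was most like the mean of the 9 brightest myelin probe sets came from outside the oligodendrocyte lists. Among 23039 candidates in the brighter 60% of the array, the 10 highest Pearson correlations on the log2 scale ran from 0.973 to 0.989, and none of the 10 belonged to the oligodendrocyte lists. They were Tmem143, Mrap2, Tfpi, Myl1, Cct4, Serpinb1b, Zfp346, Zdhhc3, Mpzl2 and Polr3b. Tmem143 (r = 0.989, Spearman rho = 1) read 121.8, 53.6, 406.1 and 190.0 in the knockouts and 316.8 and 307.9 in the wild types. With 6 arrays and so many candidates, correlations of this size are a description only.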

How the data were processed

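The deposited table holds linear signal intensities, with a value for each array and probe set. Per the submitters' processing notes the software was GCOS 1.3; how probes were summarised is not given in these sources. The mean of the middle 96% of values was 1000.0 on every array, so the deposited intensities had been scaled by the authors. Of 45101 probe sets, 64 controls were left out; of the rest 34945 had 1 symbol, 932 several and 9160 none, and symbols checked by gene identifier against GRCm38.p6 changed in 0 cases.

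Values were taken as log2(signal + 49.6), the offset being the 20th percentile of the table, which understates changes of dim genes. Knockout minus wild type was fitted without covariates or dim filter with lmFit and eBayes, the prior following intensity (limma 3.58.1, R 4.3.3; 4 residual degrees of freedom, prior 5.91), with 2-sided p-values adjusted by Benjamini-Hochberg over 45037 probe sets. The fit was tested on simulated data. These held no array-wide shift or tissue difference, so the test does not cover the differences between arrays described above. Plots used Python 3.11.15. The number of arrays limits the precision.

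The brightest probe set, by mean log2 signal, stood for its gene. Named were all members, Meltf, Pcp2, Gabra6, Sox10, Olig2 and Pdgfra, the 2 genes with the smallest p in each oligodendrocyte list, and the 10 probe sets most like the members. Motifs, array brightness and the hindbrain order were looked at after values were seen. Members and lists were chosen with earlier results of these data known. Alternatives were quantile normalisation, median centring, offsets 4 times larger and 0.25 times as large, a filter on the dimmest 40%, no trend, and each array left out.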

Additional observations from a re-analysis of the deposited data

How the results depend on the processing

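Over 12 alternatives, 12 of the 25 probe sets kept their sign in all and 13 did not. The number that passed in limma stayed at 0 in the 6 alternatives of scaling, offset, filter and trend; with 1 array left out it was 0 to 2 for the 25, 0 to 171 for the array and 0 to 1 for the other oligodendrocyte genes, the upper values each without wild type 2. Median centring gave 23 lower probe sets, median log2 differences of -0.28 over all and -0.38 over the brightest, and 9 probe sets at an unadjusted p below 0.05 in limma, against 0 without a trend and 0 to 7 with 1 array left out. Over all 45037 probe sets, the counts at that p were 3943 under median centring and 3080 without a trend, against 3046 in the main fit. The array-wide count thus rose under median centring too. With 1 knockout left out it was 2605 to 3026, beside 1 to 4 members. Leaving out a wild-type array leaves a lone one, so no count at that unadjusted p is given for those fits. The sign turned under median centring for Mbp 1456228_x_at (-0.050), 1433532_a_at (-0.033), 1436201_x_at (-0.095), 1454651_x_at (-0.14), 1419646_a_at (-0.12) and 1425264_s_at (-0.039), Mobp 1441308_at (-0.14) and Ugt8a 1419064_a_at (-0.014). Under quantile normalisation it turned for the first 5 of these (-0.057, -0.057, -0.14, -0.15 and -0.10), Mobp 1441308_at (-0.061) and Cldn11 (0.033). Median centring shifts all probe sets alike, which accounts for its turns; the other causes were not tested. With 1 array left out, the ranges of those that turned were -0.20 to 0.53, -0.13 to 0.49, -0.16 to 0.40, -0.16 to 0.32 and -0.22 to 0.41 for the 5 bright Mbp probe sets, -1.35 to 0.10 for Mbp 1451961_a_at, -0.34 to 0.21 for Mbp 1425263_a_at, -0.39 to 0.25 for Mobp 1436263_at, -0.20 to 0.12 for Cnp 1437341_x_at, -0.14 to 0.12 for Cldn11 and -0.057 to 0.41 for Ugt8a 1419064_a_at. No paired analysis was possible because the labels give the groups no shared replicate numbers. Of the 25, 2 lay below the dim filter. Of the 25 intervals, 3 leave out 0.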
